A study of Mus musculus with 10 samples.

Results

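The Hoxb genes lie side by side in one cluster on chromosome 11, and all CpG cytosines at mm9 chr11:96050000-96230000 were examined, the stretch that holds Hoxb13, Hoxb9, Hoxb8, Hoxb7, Hoxb6, Hoxb5, Hoxb4, Hoxb3, Hoxb2 and Hoxb1 in that order. The 10 libraries listed 3357 cytosines there. Of these, 399 had at least 5 reads in every library, 475 in every MLL-AF9 library and 761 in every cMyc-Bcl2 library, out of 559685, 654927 and 1040374 on the autosomes. The members were chosen by position, not by any methylation value. The files list the cytosines of the opposite strands of a CpG separately, so that a CpG can count as a pair of cytosines.

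The libraries were made by reduced representation bisulfite sequencing, which cuts DNA with the enzyme MspI, keeps short CpG-rich fragments and reads an unmethylated cytosine as thymine after bisulfite treatment. All came from leukaemic mouse spleen cells. MLL-AF9, a fusion oncoprotein of acute leukaemia, drove the c-kit+ cells of 3 WT and 3 Dnmt3b-knockin libraries. The oncogene pair cMyc-Bcl2, which pairs a growth-promoting transcription factor with a blocker of cell death, drove 2 WT and 2 Dnmt3b-knockin libraries, for which the labels name no c-kit sort. Dnmt3b is an enzyme that methylates DNA without copying an existing pattern. DNA methylation gives no reading of Dnmt3b expression, so the knockin labels have no check here. The labels give no strain, age, induction scheme or site of the knockin, and they do not say whether replicates were separate animals. The p-values therefore measure the spread between these libraries, which may be technical.

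Hox genes encode homeodomain transcription factors that specify position along the body axis, and their order on the chromosome follows their order of use in the embryo. In blood formation, genes of the cluster such as Hoxb3 and Hoxb4 are known from stem and progenitor cells and are shut as cells mature. Rearranged MLL proteins are known to keep Hox genes active, chiefly those of the Hoxa cluster. Clusters of Hox genes are rich in CpG islands that stay free of methylation in most tissues and carry Polycomb marks where the genes are silent. The comparisons of knockin with WT ask whether the Dnmt3b knockin went with more methylation over the cluster in each leukaemia, and those between leukaemias ask whether the oncogenes differed.

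Starts were placed on mm9 by matching the CpG pattern of RefSeq promoter sequences (build GRCm38.p6) to the positions listed. Of the 10 Hoxb genes, 3 had a promoter sequence in the table and 2, Hoxb8 and Hoxb1, could be placed. Hoxb4 matched more than one position equally well. The starts of 3 noncoding RNAs were placed as well: Gm30134, next to Hoxb13 in the RefSeq order, Gm51876, before Hoxb9, and Hoxb3os, which starts inside Hoxb2. All were among 66 starts placed on the surrounding stretch of chromosome 11, of which 65 kept the spacing of the RefSeq table. These starts divide the region into 5 segments, and each of the other members is described only by its segment. The 3 promoters below are shown because values of their own CpGs are given with the results. The Gm51876 start was readable too, at 3 cytosines in MLL-AF9 and 9 in cMyc-Bcl2 within 500 bp. Each runs from 250 bases before to 50 bases after the start, 5′ to 3′ on the gene's strand. Capitals mark the CpGs whose coverage reached 5 reads throughout at least one model.
Hoxb1, plus strand, mm9 chr11:96226822-96227121, 2 of 10 CpGs in capitals: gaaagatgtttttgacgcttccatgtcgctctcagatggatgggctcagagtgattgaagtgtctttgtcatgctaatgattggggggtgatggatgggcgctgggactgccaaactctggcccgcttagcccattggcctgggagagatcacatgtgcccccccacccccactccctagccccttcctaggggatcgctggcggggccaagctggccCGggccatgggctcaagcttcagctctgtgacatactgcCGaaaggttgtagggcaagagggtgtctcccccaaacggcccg
Hoxb3os, minus strand, mm9 chr11:96214659-96214958, 13 of 19 CpGs in capitals: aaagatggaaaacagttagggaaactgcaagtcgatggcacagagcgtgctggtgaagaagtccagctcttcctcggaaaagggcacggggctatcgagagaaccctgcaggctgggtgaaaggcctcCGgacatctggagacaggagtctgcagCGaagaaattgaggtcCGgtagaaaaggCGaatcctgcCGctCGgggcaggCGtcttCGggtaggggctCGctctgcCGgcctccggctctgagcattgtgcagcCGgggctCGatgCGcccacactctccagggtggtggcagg
Gm30134, minus strand, mm9 chr11:96064891-96065190, 12 of 19 CpGs in capitals: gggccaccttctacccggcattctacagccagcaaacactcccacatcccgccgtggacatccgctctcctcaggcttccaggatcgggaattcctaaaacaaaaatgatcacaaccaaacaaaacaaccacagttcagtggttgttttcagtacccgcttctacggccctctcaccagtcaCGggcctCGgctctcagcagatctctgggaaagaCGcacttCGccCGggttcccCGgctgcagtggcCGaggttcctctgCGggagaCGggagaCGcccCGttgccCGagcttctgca

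Hoxb8 starts at chr11:96143219, and none of the 13 CpGs of its promoter sequence had that coverage in either model, nor did any cytosine within 1 kb of the start. Its promoter was therefore not readable at this depth. Libraries held 14183423 to 45976478 autosomal CpG calls and 8383 to 31969 calls in the region. The median of the common cytosines was 12 to 47 reads, and relative to the autosomes the depth of the region was 0.833 to 1.11 times its mean over libraries. MLL-AF9 knockin replicate 1 stood apart in its sex chromosomes. Its relative depth of chromosome X was 0.631, against 1.06 and 1.08 in the other two MLL-AF9 knockin libraries, and it held 1764 calls on chromosome Y, against 125 and 97. In cMyc-Bcl2 WT, replicate 2 held 1493 calls on chromosome Y and replicate 1 held 195. The knockin minus WT difference of the Hoxb mean over both models was 7.24 percentage points with all libraries, 5.46 without MLL-AF9 knockin replicate 1 and 6.46 without cMyc-Bcl2 WT replicate 2. The windows called over both models are also given with and without each of these libraries.

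Most of the Hoxb cluster was sparsely methylated. Of the common cytosines, 68.7% had a mean level under 20% and 6.02% a level over 80%, against 71.2% and 18.3% on the autosomes. In bulk DNA an intermediate level cannot tell a mixture of cells from partial methylation of each. Read in 1-kb windows with at least 3 common cytosines, 19 of 33 windows were under 20%, 12 were between 20 and 80% and 2 were over 80%. Both high windows lay 19.6 and 21.3 kb before the Hoxb1 start, between Hoxb8 and Hoxb2. The higher of them, chr11:96207394-96207470, read 97.0, 92.4 and 94.4% in MLL-AF9 WT, 95.1, 95.8 and 90.8% in MLL-AF9 knockin, 96.7 and 93.7% in cMyc-Bcl2 WT and 93.0 and 96.3% in cMyc-Bcl2 knockin. All 10 libraries were high there, and the groups overlapped. The low extreme was the window chr11:96096346-96096430, 131 kb before the Hoxb1 start in the stretch between Hoxb13 and Hoxb9. It read 3.70, 4.81 and 4.08% in MLL-AF9 WT, 3.12, 2.27 and 4.46% in MLL-AF9 knockin, 0 and 0.722% in cMyc-Bcl2 WT and 1.63 and 5.04% in cMyc-Bcl2 knockin.

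**Figure D1:**
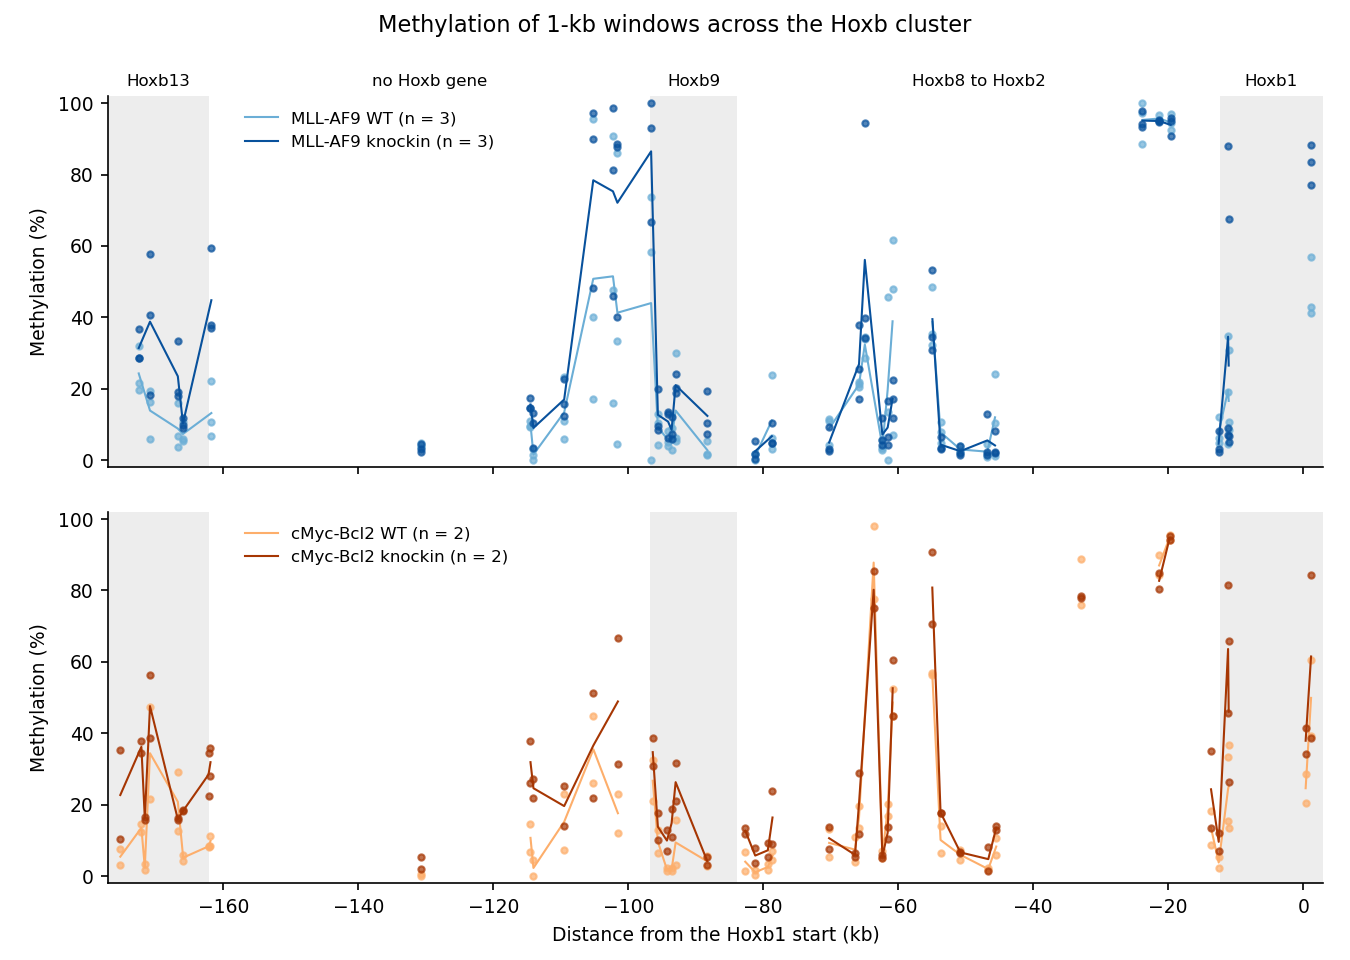
Methylation level (%, vertical axis) of 1-kb windows against distance from the Hoxb1 start (kb, horizontal axis), MLL-AF9 above and cMyc-Bcl2 below, with points for libraries, lines for group means (broken across gaps over 5 kb) and shading for the segments. Most windows lie low in all libraries, those about 20 kb before the Hoxb1 start lie near the top, and the windows just before Hoxb9 spread widely among the MLL-AF9 libraries.

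Over the whole cluster the knockin libraries were higher on average than WT in both leukaemias, but neither difference passed a test. In MLL-AF9 the mean over 475 cytosines was 19.5, 19.3 and 18.1% in WT and 29.9, 21.1 and 18% in knockin. Knockin replicate 1 was high, replicate 2 just above WT and replicate 3 just below it, so the groups overlapped. The WT mean was 19% ± 0.781 (SD, n = 3). The knockin mean was 23.0% ± 6.17 (SD, n = 3), higher by 4.06 points (exact two-sided permutation test over 20 arrangements, p = 0.400, where 0.1 is the smallest possible). Without knockin replicate 1 the difference was 0.490 points, and with each window counted once it was 7.66 points (exact permutation test, p = 0.2).

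In cMyc-Bcl2 the mean over 761 cytosines was 19 and 17.7% in WT and 29.9 and 26.6% in knockin. Both knockin libraries lay above both WT libraries, as they did over the autosomes. The means were 18.4% ± 0.931 (SD, n = 2) and 28.2% ± 2.30 (SD, n = 2), 9.86 points apart, and with 2 libraries a group the exact permutation test cannot go below p = 0.33, the value found. Over both models and 399 cytosines, with genotype permuted within each oncogene, the knockin effect was 7.24 points (exact permutation test over 120 arrangements, p = 0.0833). With cytosines weighted by their reads the effect was 4.73 points (exact permutation test, p = 0.150). It passed 0.05 without MLL-AF9 knockin replicate 3, at 8.48 points and p = 0.0167 by the same exact test. The difference between the effects, MLL-AF9 minus cMyc-Bcl2, was -7.15 points (exact permutation of oncogene labels within genotype, 100 arrangements, p = 0.210), and -3.06 points with each window counted once (same exact test, p = 0.630). Between the WT leukaemias the difference did not pass a test. The cMyc-Bcl2 WT mean was 18.4% ± 2.10 (SD, n = 2) and the MLL-AF9 WT mean 19.9% ± 0.943 (SD, n = 3) over 448 cytosines, a difference of -1.49 points (exact permutation test, p = 0.400) and of -3.64 points with cytosines weighted by their reads (exact permutation test, p = 0.1, the smallest possible). Among knockin libraries cMyc-Bcl2 was 5.07 points higher over 521 cytosines (exact permutation test, p = 0.300). That difference was 0.709 points with cytosines weighted by their reads and 2.56 points with each window counted once (exact permutation test, p = 0.9 and 0.7).

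The difference between knockin and WT was uneven along the cluster. It was lowest in both models in the long middle segment from Hoxb8 to Hoxb2. In the Hoxb13 segment, which ends at the Gm30134 start, the mean over 28 common cytosines was 18.4, 11.4 and 7.99% in MLL-AF9 WT and 33.5, 27.1 and 18.8% in MLL-AF9 knockin. The 3 knockin libraries lay above the 3 WT libraries, by a narrow margin for the nearest pair. In cMyc-Bcl2 the same segment read 22.5 and 14.7% in WT and 29.1 and 34.8% in knockin, again without overlap. The mean differences were 13.9 and 13.3 points. Over the autosomes the library means of the genotypes did not overlap either. They were 22.4, 23.2 and 22.1% in MLL-AF9 WT and 25.5, 25.1 and 24.0% in MLL-AF9 knockin. In cMyc-Bcl2 the autosomes read 23.2 and 22.6% in WT and 26.4 and 25.3% in knockin. The autosomal differences were 2.28 and 2.94 points. Hoxb13, the posterior end of the cluster, is known from the prostate and hind gut rather than from blood.

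The next segment, 65425 bases from the Gm30134 start to the Gm51876 start, lies between Hoxb13 and Hoxb9 and holds no Hoxb coding gene. There the 52 common cytosines averaged 14.3, 18.7 and 37.9% in MLL-AF9 WT and 43.7, 42.2 and 25.7% in MLL-AF9 knockin. WT replicate 3 lay above knockin replicate 3, so these groups overlapped. In cMyc-Bcl2 they averaged 24.7 and 12% in WT and 41.2 and 35.5% in knockin, with no overlap, as over the autosomes. The mean differences were 13.6 and 20 points. In the Hoxb9 segment, up to the Hoxb8 start, 96 cytosines averaged 12.7, 8.65 and 5.08% in MLL-AF9 WT and 16.9, 11.3 and 11.4% in MLL-AF9 knockin. The cMyc-Bcl2 libraries stood at 6.47 and 5.67% in WT and 14.8 and 22.0% in knockin. The differences were 4.37 and 12.3 points. Hoxb9 is another posterior gene, and its segment was the least methylated in the WT libraries of both leukaemias.

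The middle segment runs from the Hoxb8 start to that of Hoxb3os and holds Hoxb8, Hoxb7, Hoxb6, Hoxb5, Hoxb4, Hoxb3 and part of Hoxb2. Its 186 cytosines averaged 20.2, 22.2 and 18.5% in MLL-AF9 WT and 21.9, 15.5 and 14.8% in MLL-AF9 knockin, a difference of -2.88 points, and knockin replicates 2 and 3 were below every WT library. In cMyc-Bcl2 it averaged 19.3 and 19.8% in WT and 25.5 and 22.2% in knockin, 4.31 points higher. The members best known from blood stem cells, Hoxb3 and Hoxb4, lie in it, and 75.8% of its cytosines were under 20%.

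The Hoxb1 segment also holds the rest of Hoxb2. Its 37 cytosines averaged 22.4, 31.9 and 14.2% in MLL-AF9 WT and 63.8, 23.1 and 20.5% in MLL-AF9 knockin. Replicate 1 of the knockin alone was high, and replicates 2 and 3 lay within the WT range. In cMyc-Bcl2 the segment read 29.1 and 19.3% in WT and 63.0 and 35.0% in knockin. The differences were 13.0 and 24.8 points. Hoxb1 and Hoxb2 are the anterior genes of the cluster and are known from the hindbrain. No test was made on the segments, which were drawn after the values had been seen.

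**Figure D2:**
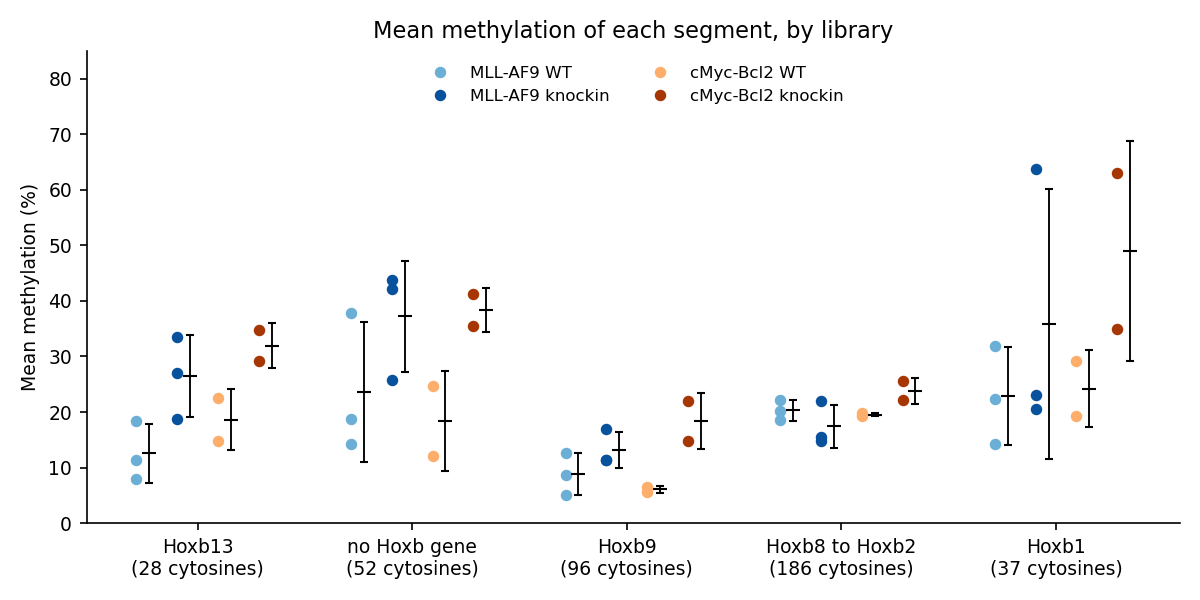
Mean methylation (%, vertical axis) of the 399 common cytosines by segment of the cluster, in order along the chromosome, with a point for each library and a bar for the group mean ± SD (n = 3 or 2). Knockin libraries lie above WT in the Hoxb13 segment of both models, the middle segment differs least, and 1 of 3 MLL-AF9 knockin libraries stands alone in the Hoxb1 segment.

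Windows were then read in the 2 leukaemias, which share no library. The knockin mean was higher in both models in 22 of 33 Hoxb windows, or 66.7%, against 41.1% of 40428 windows over the autosomes. It was lower in both in 4 Hoxb windows, and all 4 lay in the middle segment. Outside that segment the count higher in both was 3 of 4 in the Hoxb13 segment and 6 of 7 between Hoxb13 and Hoxb9. It was 6 of 6 in the Hoxb9 segment and 3 of 3 in the Hoxb1 segment. In the middle segment it was 4 of 13. In the Hoxb1 segment, the neighbouring windows chr11:96215883-96215990 and chr11:96216007-96216051 lie nearest the Hoxb3os start, inside Hoxb2. Only chr11:96228241-96228308 lies nearest the Hoxb1 start. The median MLL-AF9 difference was 3.57 points over the Hoxb windows and 1.12 over all windows. The median cMyc-Bcl2 difference was 7.64 points and 0.120. The 2 sets of windows were unlike in level. Over 80% lay 15283 of the 40428 windows and 2 of the 33, and between 20 and 80% lay 6800 and 12. Model by model the shares went opposite ways. Over the windows readable in MLL-AF9, 26 of 38 Hoxb windows, or 68.4%, were higher in the knockin, below the 76.0% of all windows. In cMyc-Bcl2 37 of 45, or 82.2%, were higher, against 53.0%. Across the 33 windows the differences in the 2 models had a Pearson r of 0.509, against 0.241 over all windows, as a description, since neighbouring windows share fragments and libraries.

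**Figure D3:**
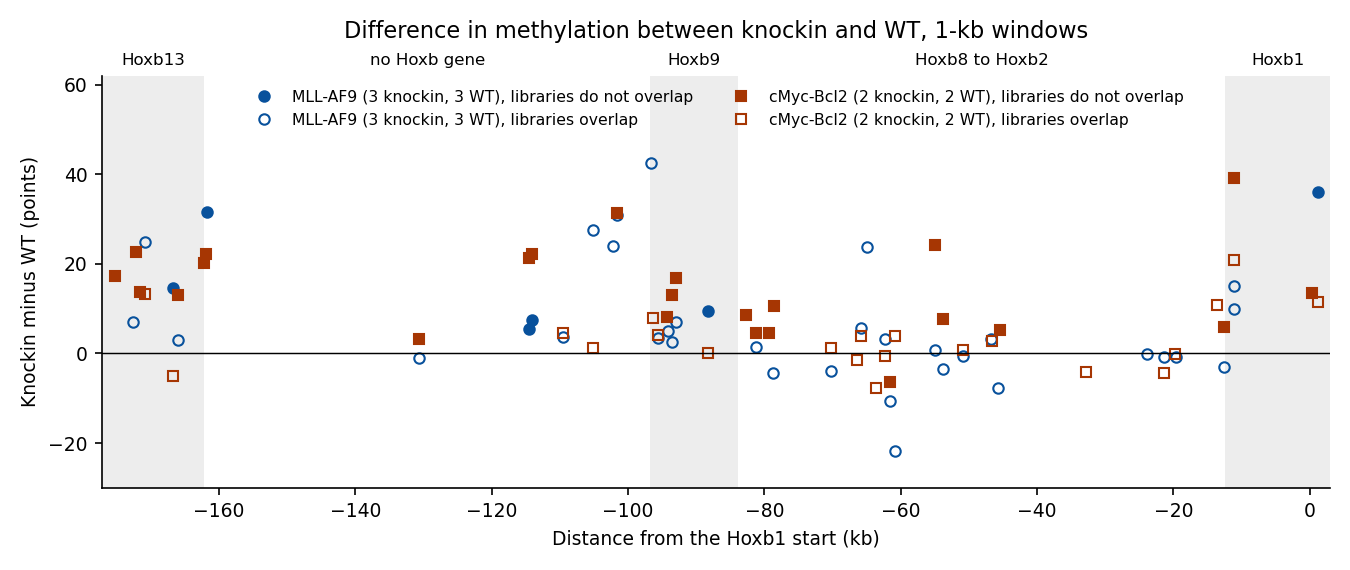
Knockin minus WT methylation (percentage points, vertical axis) of 1-kb windows against distance from the Hoxb1 start (kb, horizontal axis), circles for MLL-AF9 and squares for cMyc-Bcl2, filled where the libraries of the genotypes do not overlap. Values are mostly above 0 on the Hoxb13, Hoxb9 and Hoxb1 sides and lie on both sides of 0 between Hoxb8 and Hoxb2.

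Fitted over both models with oncogene as a covariate, 3 of 33 Hoxb windows rose in the knockin and none fell. Windows were called where the difference reached 10 points and the p adjusted over all windows was below 0.05. The share of all 40428 windows called higher was 3.67%, and 0.0322% were called lower, against 9.09% and 0% in the cluster. All 3 lay on the Hoxb13 side of Hoxb9. In 3 windows, or 9.09%, the knockin libraries lay above WT without overlap in both models, against 6.20% of all windows, and the reverse was seen in 0%, against 0.257%.

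The first rise was at chr11:96054897-96054992, 9 cytosines in the Hoxb13 segment. It read 23.5, 18.3 and 12.8% in MLL-AF9 WT, 28.9, 20.2 and 28.0% in MLL-AF9 knockin, 15.4 and 12.6% in cMyc-Bcl2 WT and 42.0 and 37.1% in cMyc-Bcl2 knockin. The cMyc-Bcl2 knockin libraries were highest of all, while in MLL-AF9 knockin replicate 2 lay below WT replicate 1. The mean rise was 16.5 points (quasi-binomial fit with limma-moderated dispersion and Benjamini-Hochberg adjustment, adjusted p = 0.0133).

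The second was at chr11:96065261-96065362, 3 cytosines 371 bp upstream of the Gm30134 start. It read 6.67, 10.7 and 22.2% in MLL-AF9 WT and 59.5, 37.8 and 37.1% in MLL-AF9 knockin, and 15.1 and 14.8% in cMyc-Bcl2 WT against 45.0 and 34.1% in cMyc-Bcl2 knockin. In each model the lowest knockin library was above the highest WT library. The rise was 28.1 points (same fit, adjusted p = 0.0273), on 18 to 97 reads a library. Nearer to that start, in the cMyc-Bcl2 libraries alone, the 12 readable cytosines in capitals above stood higher in both knockin libraries than in both WT libraries at 10 positions. Over all 1040374 cytosines readable in that model the share was 14.5%, and over the 761 of the Hoxb cluster 35.5%. Over the 25 cytosines within 500 bp of the Gm30134 start, cMyc-Bcl2 WT read 7.75 and 9.90% and cMyc-Bcl2 knockin 34.1 and 24.3%. Cytosines this close share reads.

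The third was at chr11:96113014-96113043, 4 cytosines 114 kb before the Hoxb1 start. It read 0, 3.17 and 1.56% in MLL-AF9 WT, 3.33, 10.4 and 13.3% in MLL-AF9 knockin, 4.55 and 0% in cMyc-Bcl2 WT and 21.9 and 27.3% in cMyc-Bcl2 knockin. The MLL-AF9 libraries were separated only narrowly. The rise was 14.9 points (same fit, adjusted p = 0.0361), on 20 to 126 reads a library. All 3 held without MLL-AF9 knockin replicate 1. The second and the third were lost without MLL-AF9 WT replicate 1 or cMyc-Bcl2 knockin replicate 1, which left 1 window called, and the third also without any of MLL-AF9 WT replicate 3, MLL-AF9 knockin replicates 2 and 3, cMyc-Bcl2 WT replicate 1 and cMyc-Bcl2 knockin replicate 2. None of the 3 held when cMyc-Bcl2 WT replicate 2 was left out, where the adjusted p of the same fit was 0.0983, 0.0915 and 0.125. With limma on M-values no Hoxb window was called, and over all 40428 windows 26 were called higher and 0 lower.

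**Figure D4:**
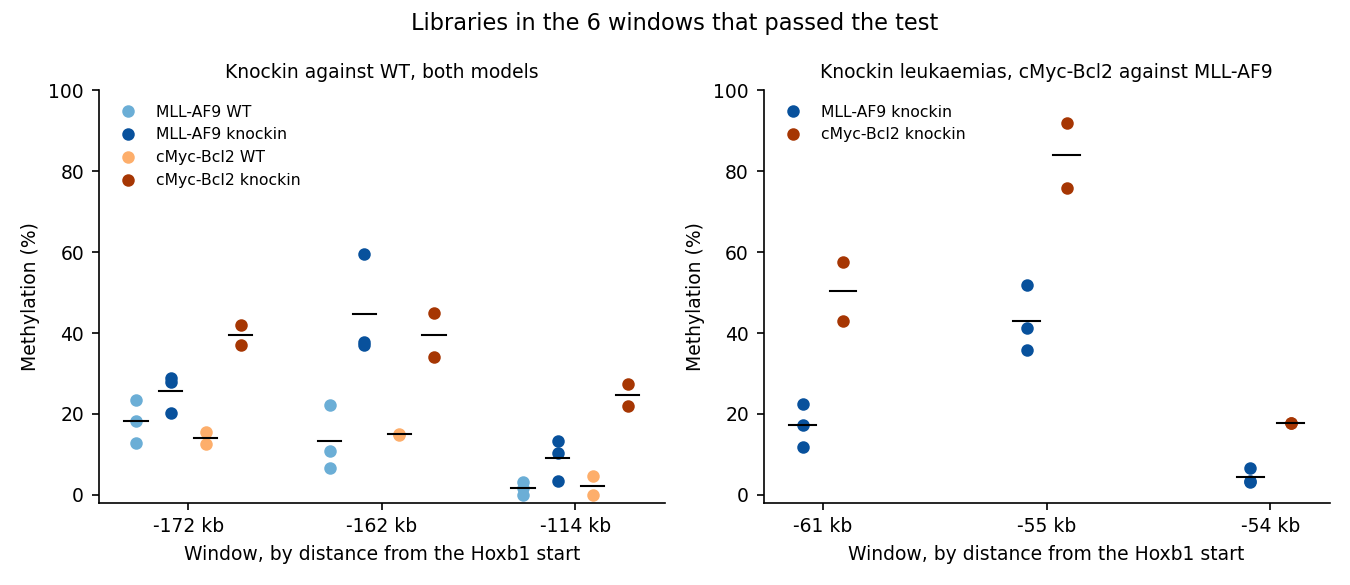
Methylation (%, vertical axis) by library in the windows that passed the test, named by distance from the Hoxb1 start, with points for libraries and bars for group means. On the left, 3 windows higher in the knockin over both models; on the right, 3 windows higher in cMyc-Bcl2 than in MLL-AF9 knockin leukaemia.

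Fitted within MLL-AF9 alone, none of 38 Hoxb windows was called with the quasi-binomial fit or with limma on M-values, and 9, or 23.7%, had an unadjusted p under 0.05, against 14.8% of all windows. Over the autosomes 0.0515% of 46593 windows were called higher and 0.00215% lower. In 6 of the 38 windows, 15.8%, all 3 knockin libraries lay above all 3 WT libraries, against 18.9% of all windows. The reverse was seen in none, against 1.43%. The widest of the 6, at chr11:96228195-96228308, 10 cytosines 1179 bp past the Hoxb1 start, read 56.8, 43.0 and 41.3% in WT and 77.2, 88.4 and 83.6% in knockin. All 3 knockin libraries were high in it, a difference of 36.0 points (quasi-binomial fit, adjusted p = 0.0715). In cMyc-Bcl2 the corresponding window, with 13 cytosines, read 39.3 and 60.5% in WT and 84.3 and 38.7% in knockin, which overlapped. The next widest was the window upstream of Gm30134 given above, at 31.6 points. It was followed by chr11:96060308-96060382 in the Hoxb13 segment, at 15.9, 6.85 and 3.77% in WT and 19.2, 33.3 and 18% in knockin. In cMyc-Bcl2 that window read 12.5 and 29.1% in WT and 16.2 and 15.6% in knockin, a difference of -4.93 points with overlap. In the Hoxb9 segment, chr11:96138746-96138852 read 1.72, 1.33 and 5.36% in WT and 19.3, 10.4 and 7.45% in knockin.

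Within cMyc-Bcl2 alone, none of 45 Hoxb windows was called with the quasi-binomial fit or with limma on M-values, and 18, or 40.0%, had an unadjusted p under 0.05, against 12.4% of all windows. Over the autosomes 0.00140% of 71497 windows were called higher and 0% lower. Both knockin libraries lay above both WT libraries in 23 of the 45, or 51.1%, against 23.5% of all windows. The reverse held in 1, or 2.22%, against 17.2%. With the 4 groups in one fit, 4 of 33 Hoxb windows, or 12.1%, were called higher for this comparison and none lower. Calls were more frequent over all 40428 windows under that setting too, at 5.63% higher and 0.522% lower. The widest window without overlap was chr11:96215883-96215990, 16 cytosines of the Hoxb1 segment whose middle lies 1228 bp upstream of the Hoxb3os start. It read 33.3 and 15.5% in WT and 81.6 and 45.7% in knockin. In MLL-AF9 its 14 shared cytosines read 19.2, 34.9 and 4.64% in WT and 88.0, 8.91 and 6.93% in knockin, so knockin replicate 1 alone was high. The next were chr11:96125389-96125693, between Hoxb13 and Hoxb9, at 23.1 and 12.2% in WT and 66.6 and 31.3% in knockin, and chr11:96172056-96172179, in the middle segment, at 56.8 and 56.2% in WT and 90.9 and 70.6% in knockin. The window lower without overlap was chr11:96165020-96165989, also in the middle segment, which read 16.8 and 20.2% in WT and 13.8 and 10.5% in knockin.

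The Hoxb1 start, at chr11:96227072, could be compared between genotypes in cMyc-Bcl2 only. The 9 cytosines within 500 bp of it averaged 24.7 and 42.1% in WT and 44.4 and 57.3% in knockin. The knockin libraries lay above WT, the nearest pair only narrowly, and the means were 33.4% ± 12.3 (SD, n = 2) and 50.8% ± 9.17 (SD, n = 2). Of its CpGs in capitals, the cytosine 32 bases before the start read 13.2 and 60% in WT and 82.4 and 88.9% in knockin, and the one 7 bases after it 90.6 and 66.7% in WT and 100 and 88.9% in knockin. No cytosine within 1 kb of the start had 5 reads in every MLL-AF9 library. In MLL-AF9 WT, 3 cytosines at chr11:96227189-96227209 read 96.7, 20.8 and 18.8%. In MLL-AF9 knockin, 3 cytosines at chr11:96227201-96227242 read 56.6, 38.1 and 47.3%. These sets differ and give no knockin difference.

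The Hoxb3os start, inside Hoxb2, averaged at most 12.1% in each library. The 39 cytosines within 500 bp averaged 5.42, 12.1 and 5.27% in MLL-AF9 WT and 8.66, 2.95 and 3.45% in MLL-AF9 knockin. In cMyc-Bcl2 60 cytosines averaged 6.03 and 2.28% in WT and 7.53 and 11.6% in knockin. The MLL-AF9 groups overlapped, and both cMyc-Bcl2 knockin libraries were higher by a small margin. In capitals above, 10 of the 23 cytosines readable in cMyc-Bcl2 were higher in both knockin libraries than in both WT libraries, and in MLL-AF9 1 of 11 was higher in all 3 knockin libraries. Over all 654927 cytosines readable in MLL-AF9 that share was 5.41%, and over the 475 of the cluster 8.42%. The cMyc-Bcl2 shares were the 14.5% and 35.5% given above. The low start thus stood beside the window of variable level at chr11:96215883-96215990 given above. The Gm51876 start, before Hoxb9, had 3 cytosines readable in MLL-AF9, at 76.2, 0 and 58.3% in WT and 100, 92.9 and 66.7% in knockin. These groups overlapped and rested on 19 to 48 reads a library. The difference was 41.7 points, and 20.6 over 7 cytosines within 1 kb. In cMyc-Bcl2 9 cytosines averaged 35.7 and 41.4% in WT and 53.4 and 54.3% in knockin. That difference was 15.3 points, and 7.76 within 1 kb.

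In several windows libraries of one group were far apart, most widely in the stretch just before Hoxb9. At chr11:96121859-96121923 the MLL-AF9 WT libraries read 17.0, 40.0 and 95.5% and the knockin libraries 97.1, 89.9 and 48.1%. At chr11:96125389-96125549 WT read 33.3, 4.53 and 86.0% and knockin 88.6, 87.6 and 40.1%. WT replicate 3 thus read like knockin replicates 1 and 2 at both places, and WT replicates 1 and 2 and knockin replicate 3 were lower. At chr11:96162087-96162157, in the middle segment, knockin replicate 1 read 94.4% and the other 5 MLL-AF9 libraries 28.6 to 39.8%. At chr11:96166163-96166303 MLL-AF9 WT read 6.92, 61.8 and 48.0% and knockin 22.5, 17.2 and 11.8%. The knockin libraries there were lower on average by 21.8 points, with WT replicate 1 below all of them (quasi-binomial fit, adjusted p = 0.275).

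Between the WT leukaemias, none of 38 Hoxb windows was called with the quasi-binomial fit or with limma on M-values, and 4, or 10.5%, had an unadjusted p under 0.05, against 12.9% of all windows. The share of all 43772 windows was 0.105% called higher in cMyc-Bcl2 and 0.0777% called lower. No Hoxb window was higher in both cMyc-Bcl2 WT libraries than in all 3 MLL-AF9 WT libraries, against 15.8% of all windows, and 2 were lower, or 5.26%, against 10.4%. Those were chr11:96096346-96096430, the low window named above, and chr11:96161186-96161341, which read 20, 20.4 and 23.7% in MLL-AF9 WT and 19.5 and 13.4% in cMyc-Bcl2 WT.

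Between the knockin leukaemias, 3 of 39 Hoxb windows were higher in cMyc-Bcl2 and none was lower. The share called over 49883 windows was 1.84% higher and 1.12% lower. All 3 lay in the middle segment, 23014 to 30122 bp past the Hoxb8 start, among the genes from Hoxb7 to Hoxb2. The c-kit sort was named for the MLL-AF9 cells alone, so oncogene and sort cannot be told apart. At chr11:96166163-96166303 MLL-AF9 knockin read 22.5, 17.2 and 11.8% and cMyc-Bcl2 knockin 57.5 and 43.1%, a difference of 33.2 points (quasi-binomial fit, adjusted p = 0.0406). At chr11:96172047-96172179 the values were 51.8, 35.7 and 41.2% and 91.9 and 76.0%, a difference of 41.1 points (same fit, adjusted p = 0.0389). At chr11:96173048-96173635 they were 6.50, 3.28 and 3.27% and 17.7 and 17.8%, a difference of 13.4 points (same fit, adjusted p = 0.0221). In all 3 the lowest cMyc-Bcl2 library lay above the highest MLL-AF9 library. That held in 8 of the 39 windows, or 20.5%, against 14.6% of all windows, and the reverse in 2, or 5.13%, against 25.3%. None of the 3 was called without MLL-AF9 knockin replicate 2 or without replicate 3, and 1, chr11:96173048-96173635, was called without replicate 1. Over all windows, 0 of 50929 were called without replicate 2 and 0 of 55271 without replicate 3. Without replicate 1, 210 of 50669 were called higher and 86 lower, against 920 and 560 with all libraries. Without cMyc-Bcl2 knockin replicate 1 the first and the second lost their call (same fit, adjusted p = 0.0567 and 0.0830), and 1 other Hoxb window was called lower. Without cMyc-Bcl2 knockin replicate 2 the third was lost (same fit, adjusted p = 0.0609). At 10 reads the second lost its call (same fit, adjusted p = 0.0583), and with the 4 groups in one fit the first did (adjusted p = 0.0687). With 500-bp windows 2 Hoxb windows were called. The first 500 bp of the third window then differed by 0.330 points on 6 cytosines (same fit, adjusted p = 0.789). With limma on M-values none of the 3 was called (adjusted p = 0.125, 0.1 and 0.12), and over all 49883 windows 127 were called higher and 156 lower. The interaction of knockin and oncogene was called in none of 33 Hoxb windows and in 0% of all windows with the quasi-binomial fit, and 7 Hoxb windows, or 21.2%, had an unadjusted p under 0.05, against 11% of all windows. With limma on M-values it was called in 1 of 40428 windows, outside the cluster.

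Set against the other Hox clusters, the Hoxb cluster had a smaller knockin difference than Hoxd in both models and a larger one than Hoxa in cMyc-Bcl2. In MLL-AF9 the order of Hoxb and Hoxa changed with the cytosines taken. The Hoxa cluster was taken from the placed start of Hoxa2 to that of Hoxa13 on chromosome 6, and the Hoxd cluster from Hoxd13 to Hoxd1 on chromosome 2. Over the cytosines common to all libraries the differences in MLL-AF9 were 3.66 points in Hoxb, 3.91 in Hoxa, 6.55 in Hoxd and 2.28 over the autosomes. In cMyc-Bcl2 they were 10.8 points in Hoxb, 2.88 in Hoxa, 17.8 in Hoxd and 2.94 over the autosomes. Over the cytosines covered in every MLL-AF9 library, the MLL-AF9 differences were 4.06 points in Hoxb, 3.86 in Hoxa and 6.47 in Hoxd. Per library the Hoxb mean minus the Hoxd mean differed between genotypes by -4.94 points (exact permutation within oncogene, 120 arrangements, p = 0.0333, and 0.0999 adjusted over the 3 such comparisons). The knockin gain of Hoxb exceeded that of the autosomes by 4.63 points (same exact test, p = 0.167, adjusted 0.183) and that of Hoxa by 3.84 points (p = 0.183 by exact permutation, adjusted 0.183). None of the 3 passed after adjustment.

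**Figure D5:**
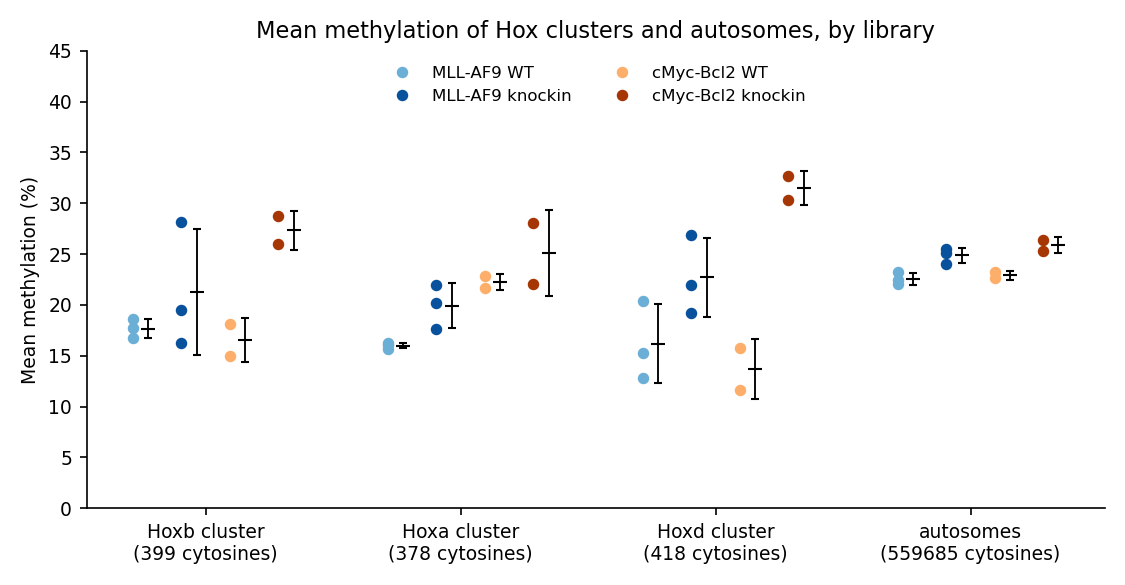
Mean methylation (%, vertical axis) of the Hoxb, Hoxa and Hoxd clusters and of the autosomes over cytosines covered in all 10 libraries, with a point for each library and a bar for the group mean ± SD (n = 3 or 2). The Hoxb knockin mean is higher by 3.66 points in the first model and 10.8 in the second, and the Hoxd difference is larger in both.

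Of the genes that work with or on Hox genes, a list of 22 cofactors, MLL partners and Polycomb members was looked up. Starts of 13 could be placed and 11 had a testable window, of which 0 were called higher and 0 lower over both models. The shares of all 40428 windows called were 3.67% higher and 0.0322% lower. The median difference of the cofactor windows was -0.130 points. Group means at these starts were at most 9.32%, in Meis1, and at most 3.47% in the others readable, which leaves little room for a fall. Of the other Hox genes, 16 starts were placed and 13 had a testable window. There 1 was called higher and 0 lower, to be read beside the same shares of all windows. The median was 11.2 points, against 0.713 over all windows and 5.89 over the 33 Hoxb windows. The one called was that of Hoxd1, at 30.2 points (quasi-binomial fit of both models, adjusted p = 0.0296). Meis1, a homeodomain partner of Hox proteins in leukaemia, and Kmt2a, the gene of MLL itself, were among the cofactors, and their start windows differed by 4.75 and 0.0762 points (same fit, adjusted p = 0.173 and 0.715). Starts of Skap1, Prac1, Ttll6, Calcoco2, Mir10a and Mir196a-1 were not placed, and these neighbours were not analysed here.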

How the data were processed

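Per the submitters' processing notes, the authors used build mm9, with Bismark 0.7.4, Trim Galore 0.2.2, methylKit and CASAVA among the tools. The sources used here do not give tool settings. In the deposited files every CpG cytosine carries 2 whole numbers, taken here as counts of methylated and of unmethylated reads. The order was checked on mitochondrial DNA, which read 0.910 to 3.20% methylated. On chromosome 11, 20.5 to 26.6% of neighbouring listed positions were 1 bp apart, so the strands are listed separately. The members, lists and comparisons were chosen with earlier results of these data known.

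Cytosines needed 5 reads in every library of a comparison. Cluster means weight each cytosine once and were tested by exact two-sided permutation over libraries. Counts were added up over windows of 1000 bp holding 3 or more cytosines on the 19 autosomes and fitted with a quasi-binomial model, with the dispersion moderated by limma 3.58.1 (R 4.3.3) and held at 1 or above, an F-test and Benjamini-Hochberg adjustment over all windows. The fits were also run on simulated counts with the same dispersion set for every window, which cannot show their error rate in these data. Calls needed an adjusted p under 0.05 and 10 points. Read counts are not independent molecules.

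Starts were placed where at least 8 listed cytosines and no others matched the CpGs of a RefSeq promoter, leading the next position by at least 2, with no conversion between builds. The GRCm38.p6 gene table gave names and gene order only. Named windows were the called ones, up to 10, and otherwise up to 5 each way, by size, among windows whose libraries do not overlap. Windows named for their spread between libraries or for their level, and the segments, were chosen after their values were seen. Python 3.11.15, numpy 2.4.6, pandas 2.3.3 and scipy 1.17.1 were used. Alternatives were minimums of 10 and 20 reads, weighting by reads, windows counted once, leaving out coverage above the 99.9th percentile, 500-bp windows, limma on M-values with 0.5 added, the 4 groups in one fit, a dispersion trend, no minimum difference and leaving out each library. Joining strands was added after seeing the data.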

Additional observations from a re-analysis of the deposited data

How the results depend on the processing

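No paired analysis was possible because the labels give no replicate numbers; those used here follow the order of deposit and pair no libraries. The mean difference over both models passed 0.05 when each window counted once (9.16 points, exact permutation p = 0.0333) and without MLL-AF9 knockin replicate 3. It was 7.04 points with strands joined (exact permutation p = 0.05) and 5.14 points at 10 reads (167 cytosines, exact permutation p = 0.150). At 20 reads only 3 cytosines were left, and there the difference between the knockin effects turned to 3.01 points and the effect was 20.4 points over both models and 21.9 in MLL-AF9. With 14 cytosines at 20 reads the WT leukaemias differed by -7.08 points. At 20 reads the knockin leukaemias differed by 8.78 points. Leaving out each library in turn gave 0.490 to 6.49 points in MLL-AF9, 8.20 to 11.4 in cMyc-Bcl2, 5.46 to 8.48 over both models, -2.68 to -0.0122 between WT leukaemias, 3.03 to 7.55 between knockin leukaemias and -10.6 to -4.51 for the difference of effects.

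The 3 windows called higher in the knockin over both models numbered 1 at 10 reads, 1 with a dispersion trend, 0 with limma on M-values and 0 to 3 with a library left out. Those called between knockin leukaemias numbered 2 at 10 reads, 2 with 500-bp windows, 0 with limma on M-values and 0 to 3 with a library left out. For cMyc-Bcl2 knockin against WT, 4 were called with the 4 groups in one fit and 0 otherwise. In MLL-AF9, between WT leukaemias and for the interaction, 0 were called under every alternative run. Over all windows, limma on M-values called 26 higher and 0 lower over both models, and 127 higher and 156 lower between knockin leukaemias. Of the 10 Hoxb genes only Hoxb1 in cMyc-Bcl2 had a start where knockin and WT could be compared. The difference there was 17.4 points, 17.9 within 1 kb and 25.6 at 10 reads, the last on 3 cytosines, and was not tested. Hoxb8 had no readable cytosine under these settings, and the other Hoxb starts were not placed. With 2 libraries a group, no exact test within cMyc-Bcl2 could pass 0.05, and read depth left 399 of 3357 listed cytosines for the comparisons of all libraries.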
